A study of Mus musculus with 6 samples.

Results

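The Myc and Max network is a small family of transcription factors, and 10 of its genes were followed here among 21740 genes measured in the mouse uterine luminal epithelium. The members are Myc, Mycn, Mycl1 (now named Mycl), Max, Mxd1, Mxd3, Mxd4, Mxi1, Mnt and Mlx. They were chosen by name, as every row of the deposited table that carries one of these symbols, and all 10 were measured. The luminal epithelium is the sheet of cells that lines the uterine cavity and that the embryo attaches to. It was isolated from wild type mice of a mixed C57BL6/129svj background on gestation day 4.5 (D4.5), when implantation sites were present, and on gestation day 3.5 (D3.5), when blastocysts were found in the uterus. The females were virgins of 2 to 4 months mated naturally with wild type males, and the day of the vaginal plug was D0.5. Dispase digestion and gentle scraping released the cells, and each day was measured on 3 Affymetrix arrays.

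Proteins of this family bind DNA in pairs through a basic helix-loop-helix leucine zipper. Myc, Mycn and Mycl need Max as their partner, and such pairs bind the E-box CACGTG and activate genes for ribosomes, nucleotides and other materials of cell growth. Mxd1, Mxd3, Mxd4, Mxi1 and Mnt also pair with Max, bind the same sequence and recruit the Sin3 co-repressor, which brings histone deacetylases. Mlx is a Max-like protein that serves as partner of the glucose-sensing Mondo factors and of some Mxd proteins. In the uterine epithelium Myc is known as a gene that oestrogen induces.

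Because the family reads CACGTG, promoters of the members and of known Myc targets were searched for it in windows of 250 bases before to 50 after each start (RefSeq, GRCm38.p6). The motif is its own reverse complement, so each match counts for both strands, and no other motif was searched. Of 9 members with a window, 4 (44.4%) held CACGTG, against 8.09% of 27025 genes with a window, and Myc has no entry in that table. The 4 sites in the members are shown with 17 bases on each side, 5′ to 3′ on the strand of the gene and with CACGTG in capitals. They lie at chr12:76962229-76962268 on the minus strand (Max), chr11:74830784-74830823 on the plus strand (Mnt), chr11:101087233-101087272 on the plus strand (Mlx) and chr5:34187907-34187946 on the minus strand (Mxd4).
Max: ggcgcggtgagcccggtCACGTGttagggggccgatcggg
Mnt: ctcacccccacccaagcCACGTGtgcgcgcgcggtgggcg
Mlx: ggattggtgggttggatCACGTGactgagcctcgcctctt
Mxd4: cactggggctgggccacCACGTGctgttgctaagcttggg

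The motif starts 3 bases before the annotated start of Max, 40 before that of Mlx, 123 before that of Mnt and 219 before that of Mxd4. The windows of Mycn, Mycl1, Mxd1, Mxd3 and Mxi1 did not hold these letters. Among 20 ribosome and RNA targets of Myc with a window 5 (25.0%) held the motif, and among 25 metabolic and transport targets 7 did (28.0%). Of 13 genes often used as references 2 (15.4%) did. Cdk4, with 4 matches, Apex1 with 3 and Eif4e with 2 neither rose nor fell by the test below, whereas Eif4g1 and Ldha, each with 2, rose. Of the targets with 1 match in a window, Nop2, Eif4a1, Eif5a, Slc16a1, Paics, Impdh2, Nme1, Hspd1 and E2f3 rose. Cul1, also with 1 match, did not pass. The windows of Polr1b, Nop56 and Tfrc, which rose, held no match. Whether targets with the motif rose more often was not tested. Sites of 3 targets that rose, with levels given below, are shown in the same way. They lie at chr3:104638447-104638486 on the plus strand (Slc16a1), chr6:125131806-125131845 on the plus strand (Nop2) and chr1:55088301-55088340 on the minus strand (Hspd1). A match describes the sequence of the window and is no measurement of binding.
Slc16a1: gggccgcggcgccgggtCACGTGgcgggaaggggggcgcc
Nop2: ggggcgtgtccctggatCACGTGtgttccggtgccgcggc
Hspd1: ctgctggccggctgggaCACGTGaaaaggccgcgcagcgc

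Levels are log2(intensity + 16) after quantile normalization of the 6 arrays, and changes are D4.5 minus D3.5 on that log2 scale, with SE, from limma with Benjamini-Hochberg adjustment over all 21740 genes. A gene is said to have risen or fallen where the adjusted p is under 0.05. Whether the 3 arrays of each day hold separate animals is not stated in the labels, and the p-values then reflect only how far these arrays spread, which may be technical. Median deposited intensities were 78.9 to 80.2 on D4.5 and 108.6 to 118.4 on D3.5, and totals ran from 8.99e+06 to 1.04e+07. The share of calls that rose depends on the scaling: it was 40.6% here, 58.8% with each array centred on its median, and 15.6% in the values as deposited. In the values as deposited the median of all genes lay at -0.40, against -0.07 after quantile normalization and 0.02 after median centring. With median centring 28.0% of all genes rose and 4264 of 21740 fell. In the values as deposited 11.4% rose and 13431 fell. Counts of lists under these scalings are to be read beside these shares. Equal values between arrays occurred within a day and never between the days. Each day was one set of arrays, so an effect of the day and one of the handling of its arrays cannot be told apart.

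Across the network, Myc, Mycn, Mxd1 and Max rose on D4.5, Mnt and Mycl1 fell, and Mxd3, Mxd4, Mxi1 and Mlx did not pass the test. Of the 10 members 6 were thus called, against 44.4% of all genes. By direction 4 rose, against 18.0% of all genes, and 2 fell, against 26.4%. Past a 2-fold change the members were Myc and Mycn, or 2 of 10, against 5.5% of all genes. Both rose, against 3.04% of all genes that rose by that much. With median centring 5 members rose, against 28.0% of all genes, and 0 fell by limma, against 4264 of 21740 genes. There no member was lower at an unadjusted p under 0.05, as Mnt and Mycl1 lost their calls and Mxd4 gained one. The levels of the 2 days did not overlap for 7 members, against 58.6% of all genes. Of these, 4 were higher on D4.5, against 23.4% of all genes, and 3 were lower, against 35.2%.

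**Figure D1:**
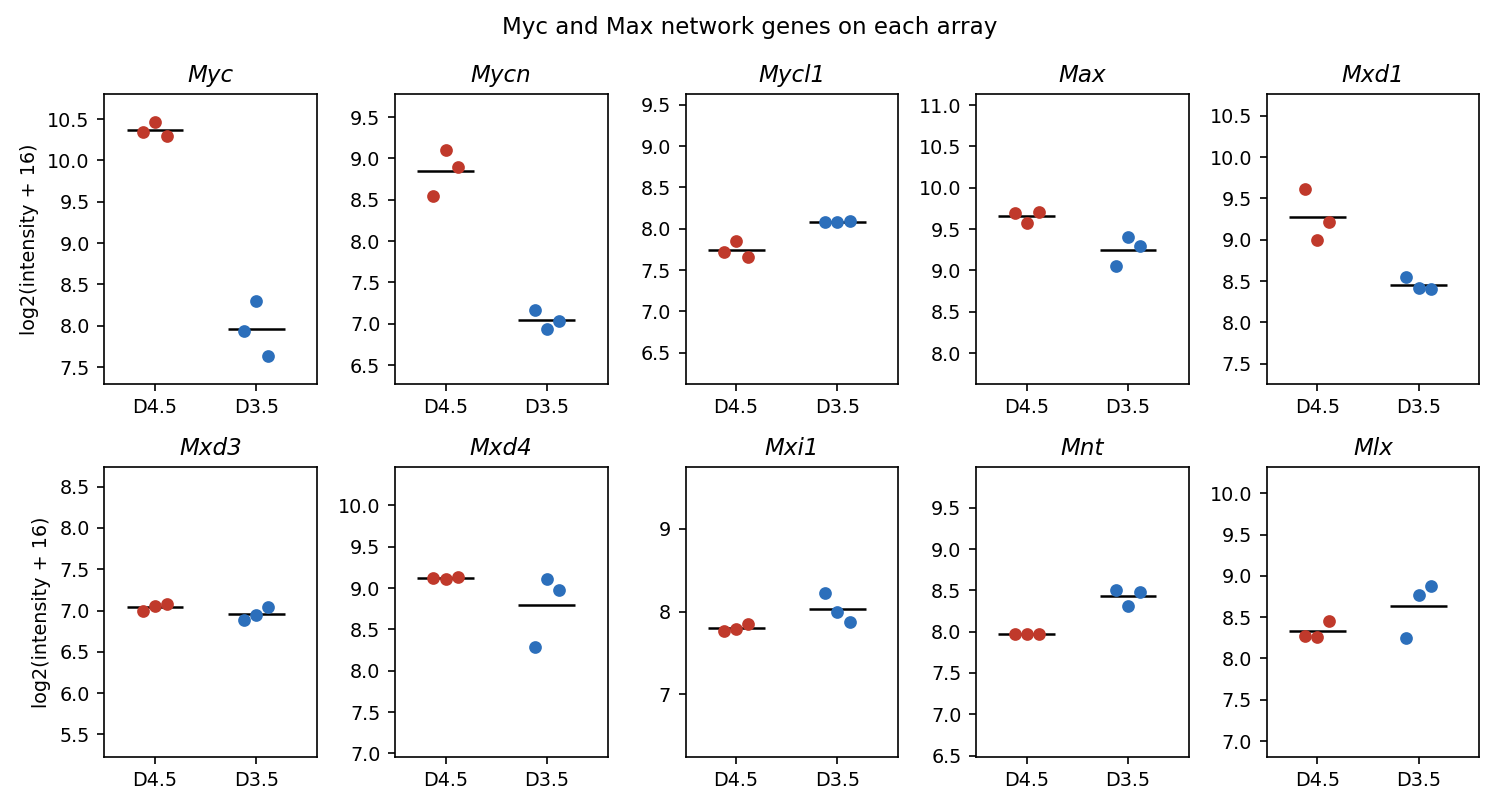
Level of each member, as log2(intensity + 16) after quantile normalization, on the 3 D4.5 arrays (red, left) and the 3 D3.5 arrays (blue, right), with horizontal lines at the day means. Each panel spans the same number of log2 units. The days are far apart for Myc and Mycn, and overlap for Mxd3, Mxd4 and Mlx.

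Myc itself, the family's best known activator of growth genes, moved furthest. Its level was 10.35, 10.46 and 10.29 on the D4.5 arrays, against 7.94, 8.30 and 7.64 on the D3.5 arrays. All D4.5 arrays stood over 2 log2 units above the D3.5 mean, and the D3.5 arrays spread more widely among themselves than the D4.5 arrays did. The change was 2.41 ± 0.16, or 5.32-fold (95% interval 4.12 to 6.87, adjusted p = 5.18e-05), which ranked 74 among the rises of all genes. The deposited intensities were 1331, 1442 and 1245 on D4.5, against 231.3, 314.6 and 201.3 on D3.5. Leaving out any 1 array gave changes from 2.25 to 2.58, and the 3 scalings gave 2.37 to 2.80.

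Mycn, the relative of Myc best known from embryonic and neural tissue, rose as well. It stood at 8.54, 9.11 and 8.89 on the D4.5 arrays, against 7.16, 6.94 and 7.03 on the D3.5 arrays. The lowest D4.5 array, replicate 1, lay above every D3.5 array. The change was 1.80 ± 0.14, or 3.49-fold (95% interval 2.77 to 4.40, adjusted p = 0.000116), with rank 172 among the rises of all genes. Leaving out any 1 array gave changes from 1.67 to 1.95, and Mycn stood at 1.50 with a constant of 64 in place of 16.

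Mycl1, the third Myc protein of the family, fell slightly. Its D4.5 arrays read 7.72, 7.85 and 7.66, against 8.08, 8.08 and 8.09 on D3.5. The days did not overlap, and the D3.5 arrays were nearly equal. The change was -0.34 ± 0.07 (adjusted p = 0.00844), but -0.06 with median centring (adjusted p = 0.619). Olfactory, vomeronasal, taste and trace amine receptor genes served as a gauge of probes with little expected signal, and of 1346 such genes 95% changed by between -0.59 and 0.33, and the change of Mycl1 lies inside that range.

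Max, the partner that Myc, Mxd and Mnt proteins share, rose by a small amount. Its level was 9.69, 9.57 and 9.71 on D4.5, against 9.05, 9.40 and 9.29 on D3.5. The change was 0.41 ± 0.10, or 1.33-fold (95% interval 1.13 to 1.57, adjusted p = 0.0154), just above the range of the receptor genes. For comparison, 18 genes often used as references had a median change of 0.20, against -0.07 for all genes. Of these 18 genes 9 rose (50.0%, against 18.0% of all genes), or 3 to 11 with an array left out. The 5435 genes of highest level hold 17 of the 18, and 29.0% of those 5435 genes rose. Without D4.5 replicate 1 the change of Max was 0.39 and no longer passed (adjusted p = 0.0523), and with median centring it was 0.87. Without D3.5 replicate 1, the lowest array for Max, the change was 0.31 (adjusted p = 0.0179), and with array weights it was 0.30. Both lie inside the range of the receptor genes, which was computed over all 6 arrays without weights.

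**Figure D2:**
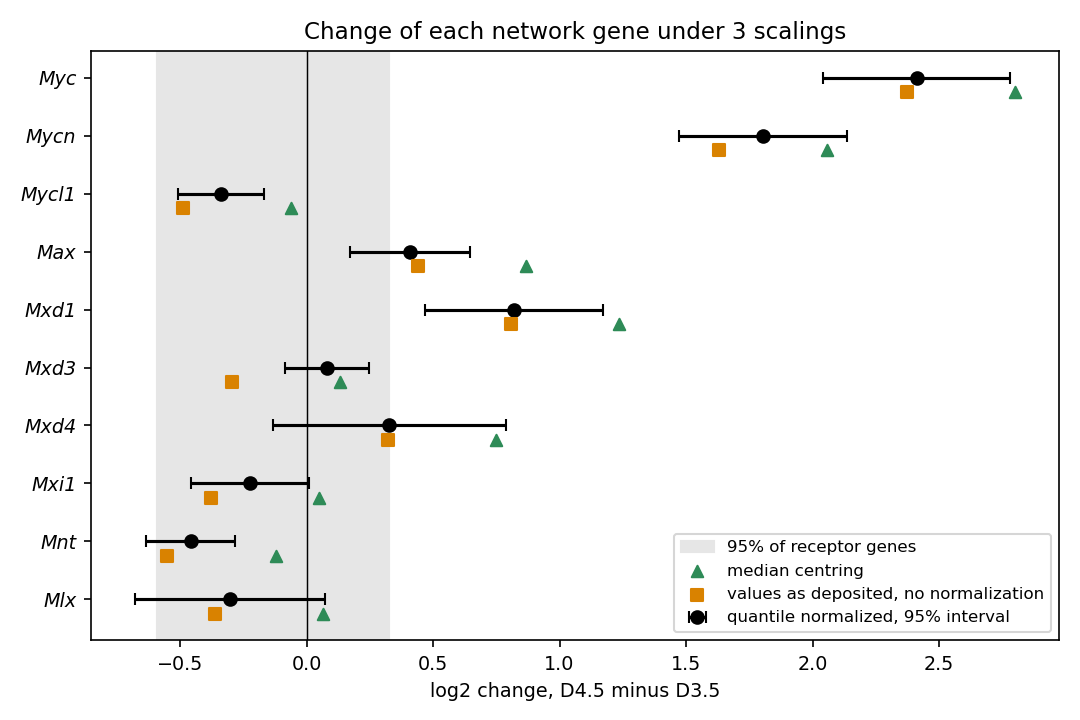
Log2 change of each member, D4.5 minus D3.5, after quantile normalization (black, with 95% intervals), after median centring (green) and in the values as deposited (orange). The grey band holds 95% of the receptor genes after quantile normalization and was not computed for the other scalings. Myc, Mycn, Mxd1 and Max lie to the right of that band under all 3 scalings, whereas Mxd3, Mxi1 and Mlx change sign between scalings.

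Among the repressors that compete for Max, Mxd1 was the member that rose. Mxd1, also called Mad1, is known to be induced when cells leave the cell cycle and differentiate. Its level was 9.62, 9.00 and 9.21 on D4.5, against 8.55, 8.42 and 8.40 on D3.5. The D4.5 arrays were all higher but differed among themselves, with replicate 1 highest, and the deposited intensities of D3.5 replicates 2 and 3 were exactly equal (342.5). The change was 0.82 ± 0.15, or 1.77-fold (95% interval 1.38 to 2.25, adjusted p = 0.00438), with changes from 0.65 to 0.96 when an array was left out. Myc and Mxd1, an activator and a repressor that share Max and the E-box, were thus both higher on D4.5.

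Mnt, the most widely expressed repressor of the family, went the other way. Its 3 D4.5 arrays all read 7.97, against 8.50, 8.31 and 8.48 on D3.5. The days did not overlap, and Mnt was 1.37-fold lower on D4.5 (change -0.46 ± 0.08, adjusted p = 0.00276). With median centring the change was -0.12 and did not pass (adjusted p = 0.239), and after quantile normalization it lies inside the range of the receptor genes.

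The other Max-binding repressors did not pass. Mxd3, which is known from dividing cells, read 6.99, 7.06 and 7.07 on D4.5, against 6.89, 6.95 and 7.04 on D3.5. Its change of 0.08 had a 95% interval from -0.08 to 0.25, and in the values as deposited it was -0.30 (adjusted p = 0.00624), less than the shift of the median gene there. Mxi1, also called Mxd2, has 2 rows in the table, and their mean was 7.76, 7.79 and 7.85 on D4.5, against 8.22, 7.99 and 7.87 on D3.5. The D4.5 arrays were all below the D3.5 arrays, by little for D3.5 replicate 3, and the change was -0.22 (95% interval -0.46 to 0.01, adjusted p = 0.103). With median centring Mxi1 stood at 0.05.

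Mxd4 and Mlx were both marked by D3.5 replicate 1, the array with the lowest total but the highest median intensity. Mxd4, a repressor linked to differentiated cells, read 9.12, 9.11 and 9.13 on D4.5, against 8.29, 9.11 and 8.98 on D3.5. Replicate 1 was the low D3.5 array, and the change was 0.33 (95% interval -0.13 to 0.79, adjusted p = 0.213), or 0.07 without it. With median centring the change of 0.75 passed (adjusted p = 0.0421).

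Mlx read 8.27, 8.26 and 8.46 on D4.5, against 8.25, 8.77 and 8.87 on D3.5. Again replicate 1 was the low D3.5 array and overlapped with D4.5. The change was -0.30 (95% interval -0.68 to 0.07, adjusted p = 0.161). Without that array Mlx fell by 0.49 on the log2 scale (adjusted p = 0.00571), and with median centring it stood at 0.06.

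The remaining proteins of the network are Mga, a large Max-binding repressor, and the Mondo factors Mlxip and Mlxipl, which pair with Mlx and respond to glucose. Of these 3 genes 1 rose (33.3%, against 18.0% of all genes) and 0 fell by limma (against 26.4%), with 0 lower at an unadjusted p under 0.05 too. Mlxipl, also called ChREBP, had levels of 7.72, 8.01 and 7.61 on D4.5, against 7.34, 7.42 and 7.26 on D3.5 (change 0.44 ± 0.11, adjusted p = 0.0162). It lost its call without D3.5 replicate 3 (0.40, adjusted p = 0.0533) and in the values as deposited (0.21, adjusted p = 0.159). Mga changed by 0.07 (95% interval -0.15 to 0.30) and Mlxip by -0.11 (95% interval -0.32 to 0.09), and with median centring both passed, at 0.54 and 0.38.

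Genes that Myc is known to activate were then followed, in lists written from textbook targets. The lists and their counts are descriptive, since they were drawn up with results of these data known. Genes for making ribosomes and for translation were higher on D4.5 almost throughout: 21 of 24 rose and 0 fell by limma, with a median change of 0.58, against -0.07 for all genes. The share that rose, 87.5%, stands beside 18.0% of all genes, 26.8% of genes above the median level and 29.0% of the 5435 genes of highest level, which hold 18 of the 24. At an unadjusted p under 0.05, 1 gene of the list (Ubtf) was lower. With median centring 24 rose (against 28.0% of all genes) and in the values as deposited 19 did (against 11.4%). With a constant of 64 or the row of the highest mean 1 gene fell. Rows of a symbol are not paired between the days. For genes with several rows, the row of the highest mean may therefore compare different probes on the 2 days. Over the 6 fits that each left out 1 array the count ran from 18 to 21.

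Polr1b, the second largest subunit of RNA polymerase I, and Nop56, a core protein of the snoRNP that methylates ribosomal RNA, had the smallest p-values in that list. Polr1b read 9.57, 9.56 and 9.39 on D4.5, against 7.83, 7.84 and 7.75 on D3.5 (change 1.70 ± 0.08, adjusted p = 1.28e-05). Nop56 read 10.26, 10.36 and 10.20 on D4.5, against 8.62, 8.81 and 8.74 on D3.5 (change 1.55 ± 0.08). For both, the distance between the days was many times the spread within a day. Nop2, an rRNA methyltransferase whose promoter site is shown above, rose by 0.75 ± 0.09. Nolc1 (0.15), Eif4e (0.12) and Ubtf (-0.19) did not pass.

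Targets in metabolism and transport behaved alike in count. Of 29 genes 23 rose and 0 fell by limma, and their median change was 0.59. At an unadjusted p under 0.05 also 0 were lower, but 1 fell with the row of the highest mean, where the probes may differ between the days. The share that rose was 79.3%, against 18.0% of all genes and 29.0% of those 5435 genes of highest level, which hold 21 of the 29. The count was 25 with median centring (against 28.0% of all genes), 20 in the values as deposited (against 11.4%) and 18 to 23 with an array left out. Slc16a1, a carrier of lactate and pyruvate, read 10.18, 9.93 and 10.09 on D4.5, against 6.20, 6.69 and 6.06 on D3.5 (change 3.75 ± 0.16, adjusted p = 1.15e-05). Tfrc, the transferrin receptor for iron uptake, read 9.45, 9.96 and 9.33 on D4.5, against 5.86, 6.09 and 6.24 on D3.5 (change 3.52 ± 0.17). Both lay on D3.5 under the 95th percentile of the receptor genes on average (6.56), so their folds depend on the constant, and with 64 the changes were 3.12 and 2.82.

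Srm, which makes spermidine, rose by 1.86 ± 0.15, and Hspd1, the mitochondrial chaperonin whose promoter site is shown above, by 1.04 ± 0.08. Odc1, the ornithine decarboxylase often used as a Myc target, changed by 0.35 (95% interval -0.06 to 0.76, adjusted p = 0.141). The other members of this list that did not pass were Ptma, Apex1, Slc3a2, Hk2 and Hspe1. In the 2 lists 8 of 24 and 7 of 29 genes have several rows, whose mean was used. Over genes with 1 row 14 of 16 and 19 of 22 rose.

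**Figure D3:**
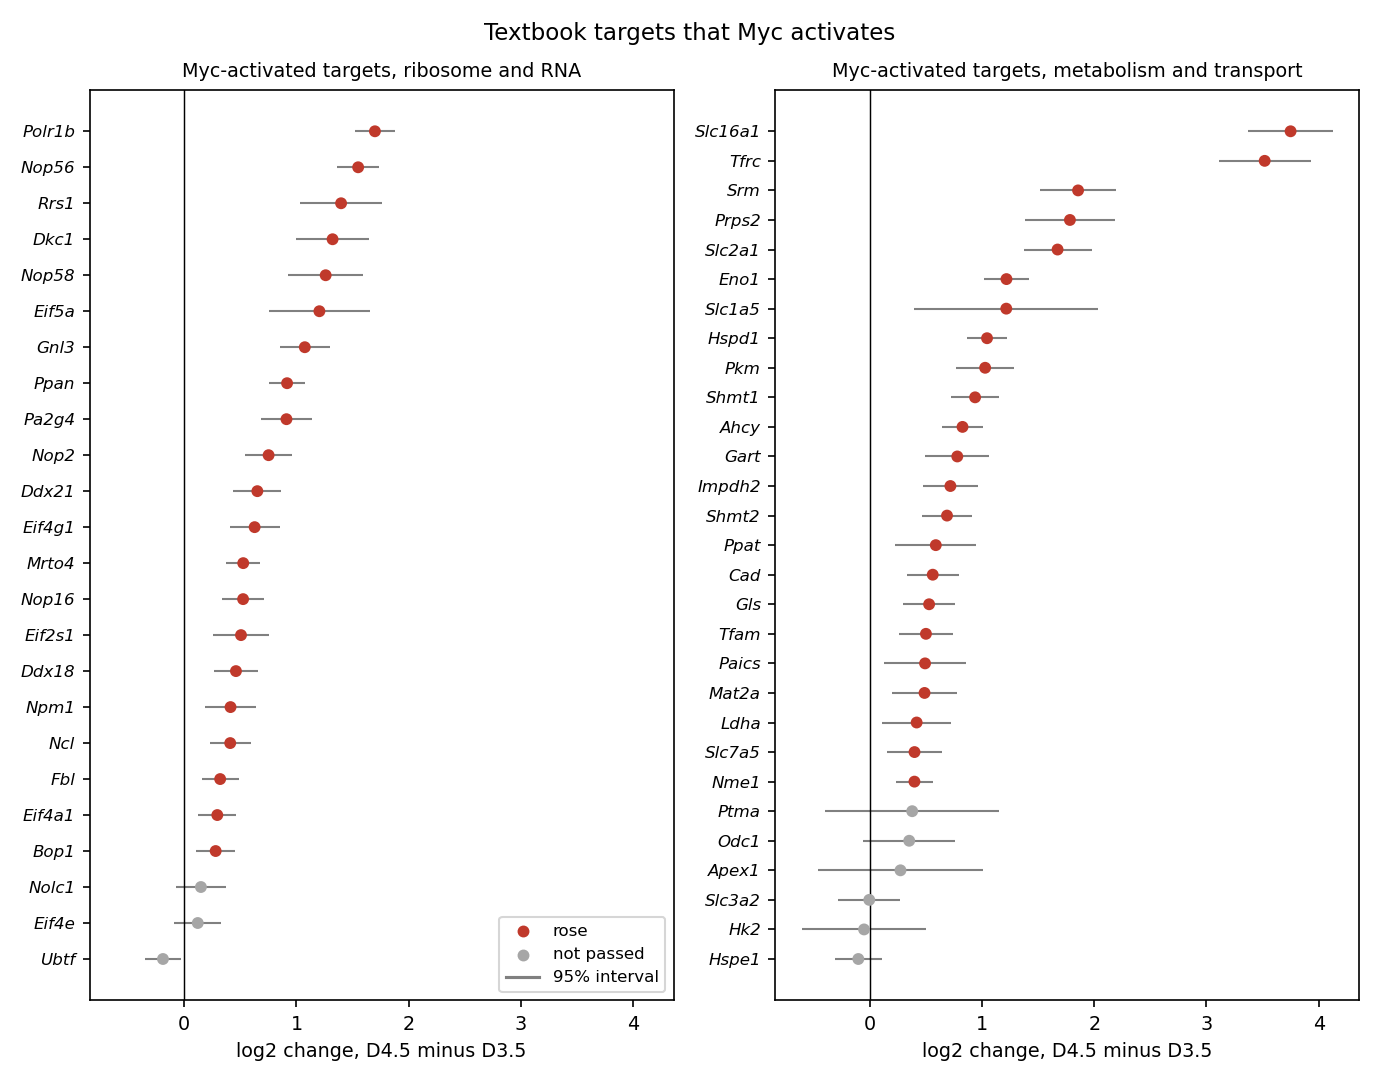
Log2 change, D4.5 minus D3.5, with 95% intervals, of 24 targets for ribosome and RNA (left) and 29 for metabolism and transport (right), sorted by size. Red points rose and grey points did not pass; no gene of either list fell. Slc16a1 and Tfrc stand apart at the top of the right panel.

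Cell cycle targets moved in both directions. Of 15 genes 6 rose (40.0%, against 18.0% of all genes) and 3 fell (20.0%, against 26.4%), with a median change of 0.11. With median centring 7 rose (against 28.0% of all genes) and 1 fell (against 4264 of 21740). In the values as deposited 5 rose (against 11.4%) and 5 fell (against 13431 of 21740), with a median of -0.20. With an array left out 1 to 3 fell and the median ran from 0.06 to 0.13; the count was 1 without D3.5 replicate 3 and 1 without D4.5 replicate 2. Ccnd1, cyclin D1, read 9.51, 9.43 and 8.95 on D4.5, against 7.19, 7.36 and 7.52 on D3.5 (change 1.94 ± 0.16, adjusted p = 0.000131). E2f3 rose by 0.79 ± 0.06 as the mean of its 2 rows, but stood at -0.06 when the row with the highest mean was taken and at 0.41 in the values as deposited. Cdc25a, a phosphatase that opens the cell cycle, fell by 0.36 on the log2 scale and E2f2 by 0.31, both inside the range of the receptor genes. The call of Cdc25a was lost with median centring (-0.06). E2f2 stood at -0.72 in the values as deposited, and its call was lost without D3.5 replicate 3, D4.5 replicate 1 or D4.5 replicate 2. Cdk4 (-0.01) and Ccnd2 (0.02), classical targets, did not pass.

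Targets that Myc is known to repress also moved in both directions. Of 14 genes 4 rose (28.6%, against 18.0% of all genes) and 2 fell (14.3%, against 26.4%), with a median change of 0.16. With an array left out 3 to 4 rose and 1 to 2 fell, and the median was lowest, at 0.07, without D3.5 replicate 3. With median centring 6 rose (against 28.0% of all genes) and 1 fell (against 4264 of 21740), with a median of 0.44. In the values as deposited 4 rose (against 11.4%) and 3 fell (against 13431 of 21740), with a median of 0.02. Cebpa, a differentiation factor, rose by 1.65 ± 0.18 and Ndrg1 by 1.22 ± 0.11. Cdkn2c, an inhibitor of cyclin D kinases, fell by 0.56 on the log2 scale, with changes of -1.05 in the values as deposited and -0.33 with a constant of 64. Its means, 5.88 on D4.5 and 6.44 on D3.5, lay under the 95th percentiles of the receptor genes (6.37 and 6.56), and its change lies inside their range. Thbs1 fell by 1.38 ± 0.42 on the log2 scale. Thbs1 lost its call with median centring (-0.98) and without D3.5 replicate 1, D3.5 replicate 3, D4.5 replicate 2 or D4.5 replicate 3. Cdkn1a, the cell cycle inhibitor p21, changed by -0.53 and did not pass. Among 12 targets of Mlx and its Mondo partners 3 rose (25.0%, against 18.0% of all genes) and 6 fell (50.0%, against 26.4%). With an array left out 4 to 5 fell. Acly (0.92 ± 0.09) and Mid1ip1 (0.71 ± 0.10, or 1.18 with median centring) rose, whereas Fasn (-1.56 ± 0.08) and Thrsp (-2.33 ± 0.14), also of fatty acid synthesis, fell.

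**Figure D4:**
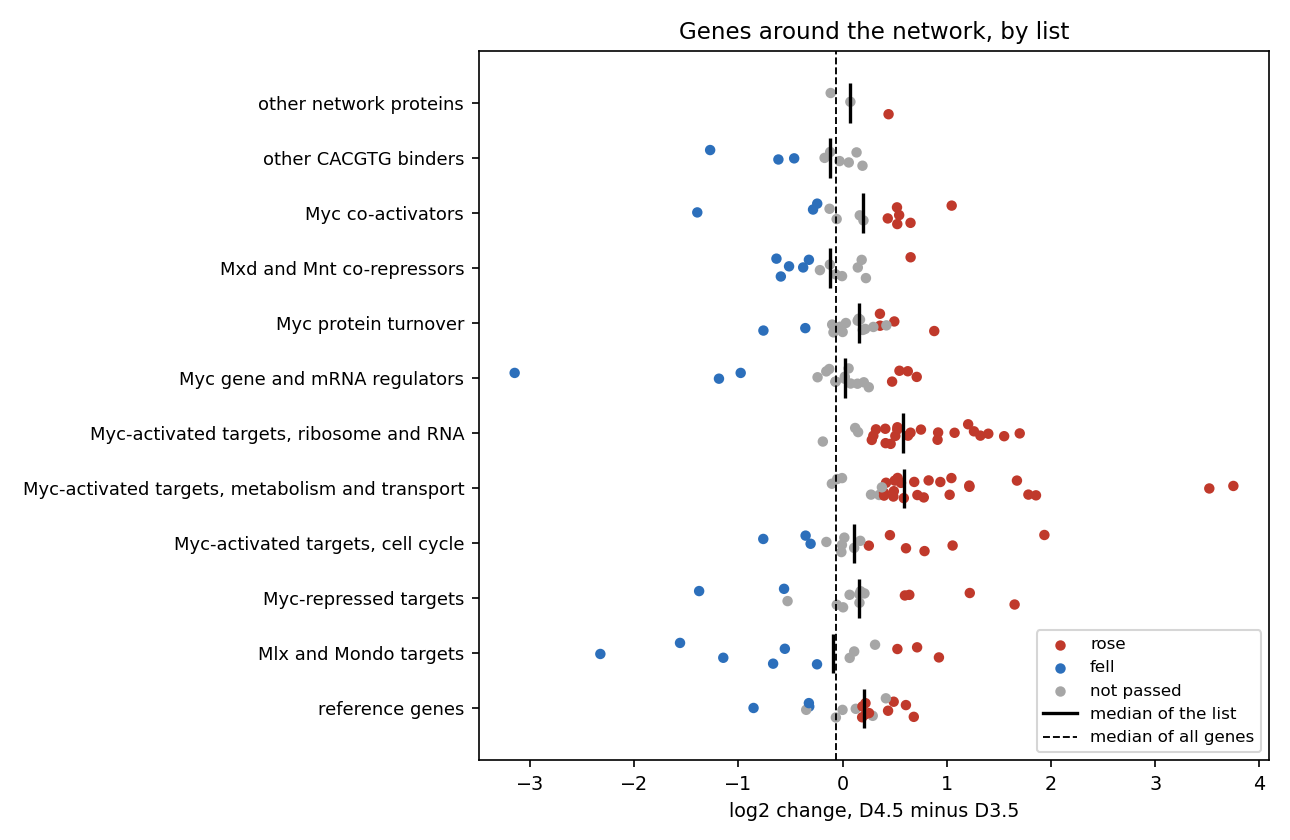
Log2 change, D4.5 minus D3.5, of each gene in 12 lists (red rose, blue fell, grey did not pass), with the median of each list (bar) and of all genes (dashed). The 2 lists of ribosomal and metabolic Myc targets lie furthest to the right, with medians of 0.58 and 0.59.

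Cofactors of the 2 arms of the network were read next. Of 13 co-activators that Myc binds 6 rose (46.2%, against 18.0% of all genes) and 3 fell (23.1%, against 26.4%). With median centring 9 rose (against 28.0% of all genes) and 1 fell (against 4264 of 21740). Without D4.5 replicate 2 also 1 fell. Wdr5, a histone methyltransferase subunit that helps Myc onto chromatin, rose by 1.05 ± 0.08 and Actl6a by 0.54 ± 0.07, while Ep400 (-1.40 ± 0.11) and Ccnt1 (-0.28 ± 0.06) fell. Ep400 stood at -0.89 and Actl6a at 0.98 with median centring. Ccnt1 lost its call with median centring (-0.03) and without D4.5 replicate 2, and stood at -2.34 with the row of the highest mean (adjusted p = 1.33e-06) and at -0.45 in the values as deposited. Of 13 co-repressor genes of Mxd and Mnt 1 rose (7.69%) and 5 fell (38.5%), or 4 to 7 with an array left out. The histone deacetylases Hdac1 (-0.64 ± 0.07) and Hdac2 (-0.59 ± 0.07) fell, although neither passed with median centring (-0.16 and -0.14). There 6 genes of the list rose (against 28.0% of all genes) and 0 fell by limma (against 4264 of 21740). Sap30, a Sin3 subunit, rose by 0.65 ± 0.10, but not in the values as deposited (0.17), and stood at 0.39 with a constant of 64. Its D3.5 mean of 5.85 lay under the 95th percentile of the receptor genes (6.56).

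Genes that act on Myc protein stability gave 4 rises (22.2%, against 18.0% of all genes) and 2 falls (11.1%, against 26.4%) among 18. In the values as deposited they gave 3 rises (against 11.4% of all genes) and 6 falls (against 13431 of 21740). With median centring they gave 12 rises (against 28.0%) and 1 fall (against 4264 of 21740). Fbxo32, an F-box ubiquitin ligase (0.88 ± 0.10), and the deubiquitinase Usp28 (0.50 ± 0.10, or 0.29 in the values as deposited) rose. Gsk3b, the kinase whose phosphorylation marks Myc for breakdown, fell by 0.76 on the log2 scale (SE 0.10, adjusted p = 0.000948). Senp1 fell by 0.36, inside the range of the receptor genes. With median centring Gsk3b stood at -0.27 (adjusted p = 0.0459) and Senp1 at -0.04 with no call. Fbxw7, the ligase that reads that mark, changed by 0.14 and did not pass.

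Of 19 genes that act on Myc transcription or mRNA 4 rose (21.1%) and 3 fell (15.8%), against 18.0% and 26.4% of all genes. Esr1, the oestrogen receptor, read 11.12, 11.19 and 11.25 on D4.5, against 10.36, 10.60 and 10.47 on D3.5 (change 0.71 ± 0.08, adjusted p = 0.000631). Pgr, the progesterone receptor, read 7.55, 7.16 and 6.78 on D4.5, against 10.52, 10.12 and 10.29 on D3.5. Smad3 rose by 0.63 ± 0.10 and Notch1 fell by 1.19 on the log2 scale. With median centring 13 genes of this list rose (against 28.0% of all genes) and 3 fell (against 4264 of 21740). Esr1 then stood at 1.24, Smad3 at 1.10 and Notch1 at -0.71. In the values as deposited 4 rose (against 11.4%) and 6 fell (against 13431 of 21740). Of 9 other factors that bind CACGTG without Max or Mlx 0 rose and 3 fell by limma, with 0 higher at an unadjusted p under 0.05. The share that fell was 33.3%, against 26.4% of all genes. With median centring 2 rose (against 28.0% of all genes) and 3 fell (against 4264 of 21740). In the values as deposited 5 fell, against 13431 of 21740 genes. Among those that fell were the circadian partners Clock (-1.27 ± 0.11) and Arntl (-0.62 ± 0.10), which stood at -0.82 and -0.40 with median centring.

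By the pattern over the 6 arrays, each gene centred on its own mean, the genes nearest to Myc were Fam20c, Ctps and Nmb. Their root mean square differences from Myc were 0.10, 0.11 and 0.11 log2 units. Fam20c encodes a kinase of secreted proteins, Ctps a CTP synthase and Nmb the peptide neuromedin B, and they changed by 2.50, 2.35 and 2.52.

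Markers of the labelled cell type were read beside those of other cell types. All 15 markers of luminal epithelium, among them Krt8, Krt18 and Cdh1, lay above the 95th percentile of the receptor genes, as all 10 network members did on both days. So did 12 of 14 stromal, 8 of 8 endothelial, 7 of 11 leukocyte, 6 of 9 glandular, 4 of 6 smooth muscle and 4 of 5 red cell markers. This bar therefore does not set luminal epithelium apart. Of 8 embryo markers 3 passed it. Summed normalized intensities of 14 stromal markers were 1992 to 6567 on D4.5 and 3539 to 5720 on D3.5, and those of 11 leukocyte markers 1011 to 1671 on D4.5 and 1070 to 1370 on D3.5, so these ranges overlapped. The sums of smooth muscle, endothelial and red cell markers overlapped between the days too. Sums of 9 glandular markers did not (716.6 to 793.4 on D4.5, 610.4 to 679.8 on D3.5), nor did those of 15 luminal markers (2.11e+04 to 2.38e+04 on D4.5, 2.46e+04 to 2.82e+04 on D3.5) or of 8 embryo markers (932.1 to 1074 on D4.5, 1654 to 1984 on D3.5). A sum weighs its brightest genes most, and single markers were split. Of the luminal markers 3 rose (20.0%, against 18.0% of all genes) and 4 fell (26.7%, against 26.4%). Of the glandular markers 3 rose and 3 fell (33.3% each), and of the embryo markers 1 rose (12.5%) and 3 fell (37.5%). The part of these cell types in the changes of Myc, Mycn and their targets was not tested. In such bulk samples fewer cells of a type and less RNA per cell cannot be told apart.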

How the data were processed

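Biotin-labelled cRNA from 1 µg of total RNA was hybridised to one-colour Affymetrix arrays, per the labels' protocols, 3 for D4.5 and 3 for D3.5. The deposited table holds linear intensity values; their software and normalization: not given in the sources used here. Deposited p-value and fold (ratio) columns, the authors' own comparison, were not used. Of 35556 rows 25070 carry 1 symbol, which gave 21740 genes. Rows of the same symbol are not paired between the days (r = 0.00076 over 5076 rows, against 0.931 over 19994 genes with 1 row), so each symbol took the mean over its rows; among the members this matters for Mxi1 alone. Rows without a symbol were not paired either (r = -0.034 over 10458 rows), so a row's probe identifier cannot be taken to hold for both days: identifiers were not used, and gene values rest on the symbol column alone.

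Values were taken as log2(intensity + 16), quantile normalized over all rows and compared with limma 3.58.1 in R 4.3.3 (lmFit and eBayes, two-sided, Benjamini-Hochberg). Tables and figures used Python 3.11.15, pandas 2.3.3 and matplotlib 3.10.9. Detection calls were not used, and precision is limited by the number of arrays. Members, gene lists and the naming rule were chosen with earlier results of these data known. Named are all members and other network proteins, and the 3 genes nearest to Myc. From each list at most 2 risers and 2 fallers of lowest p are named. Nop2, Srm, Hspd1, Odc1, targets with a promoter match and the listed genes that did not pass were named after their values were seen. Old symbols were matched through RefSeq synonyms (GRCm38.p6). Alternatives were median centring, no normalization, constants of 1 and 64, the row with the highest mean, genes with 1 row, genes above the median level, trend and robust eBayes, array weights, the replicate block and each array left out.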

Additional observations from a re-analysis of the deposited data

How the results depend on the processing

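Of 159 values for members under the alternatives 149 kept their direction and their side of the threshold. Most alternatives used the same quantile normalized values, so this count does not measure how far the scaling matters. With median centring Mnt and Mycl1 lost their calls, Mxd4 gained one, and Mxi1 and Mlx changed sign. With median centring Mxi1 stood at 0.05, Mlx at 0.06 and Mlxip at 0.38, and of the reference genes Tbp stood at 0.10. In the values as deposited Mxd3 stood at -0.30. E2f3 stood at -0.06 with the row of the highest mean, where the probes may differ between the days. The count of all genes called, 9651, was 15914 in the values as deposited and 5771 over genes above the median level, where fewer genes were tested. Array weights gave Mlx a call (-0.50, adjusted p = 0.00373), and the values as deposited gave Mxi1 one (-0.38, adjusted p = 0.00372). The cause of these shifts was not tested. Same-numbered arrays shared only a number (correlations of their deviations of -0.06, 0.06 and 0.10). With the replicate block 8283 genes passed, 6 of the 10 members kept a call, and no member's call changed.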
